A study of Chlorocebus aethiops with 10 samples.

Results

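The genes of the vacuolar proton pump (V-ATPase), the cathepsins and the lysosome-associated membrane proteins (LAMPs) were followed in liver after inhibition of miR-33. They were taken by gene symbol alone: every symbol that begins with ATP6V0 or ATP6V1, every CTS symbol with a single letter after it, and LAMP1 to LAMP5. The rule found 38 of 16583 measured genes, on 45 of 45033 array features: 19 proton pump genes, 15 cathepsins and 4 LAMPs. The liver biopsies were of adult African green monkeys (Chlorocebus aethiops), all female and moderately obese, that had been on a high-fat diet for 12 weeks. The 5 treated animals had received antimiR-33a/b, an LNA oligonucleotide that targets both miR-33a and miR-33b, by subcutaneous injection at 20 mg/kg on day 0 and 5 mg/kg weekly afterwards, and the 5 vehicle animals had received 0.9% saline. All 10 biopsies date from day 57, after 8 weeks of treatment, and each array is another animal. Both groups share the obesity, the sex and the diet. Animals given an antimiR against miR-33a or miR-33b alone were not analysed here.

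Lysosomes digest proteins, lipids and cell organelles in an acid lumen. The V-ATPase makes that lumen acid: its cytosolic V1 sector splits ATP and turns a rotor, and its membrane-bound V0 sector moves protons through a ring of proteolipid subunits. Most cathepsins are proteases that work in this acid compartment, and LAMP1 and LAMP2 are the most abundant glycoproteins of its membrane. In liver the lysosome takes part in autophagy, including the breakdown of lipid droplets, and miR-33 has been reported to restrain autophagy and lysosome genes in mouse macrophages. A bulk biopsy mixes hepatocytes, Kupffer cells (the liver macrophages) and other cells, so that fewer cells of a type and less RNA per cell cannot be told apart.

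Values are centred for each array feature, so 0 is that feature's own middle level, a value compares animals for 1 gene, and levels of different genes cannot be compared. They are treated as log2 units; the log base is not given in the sources used here. Because centring took the levels away, the tissue could not be checked from the level of its markers. Array medians lay between -0.054 and 0.061. As a check of the treatment, ABCA1, the cholesterol exporter that miR-33 represses, was higher by 0.45 in treated livers (limma adjusted p = 0.0141), and SREBF2, the host gene of miR-33a, was lower by 0.20 (adjusted p = 0.0380; missed in 7 of the 10 fits that left out 1 animal, up to 0.0950). SREBF1, the host gene of miR-33b, differed by -0.105 and did not pass (limma adjusted p = 0.418). In limma 3399 of 16583 genes, or 20.5%, passed an adjusted p of 0.05, with 2271 genes (13.7%) higher and 1128 genes (6.80%) lower in treated animals. After quantile normalization of the arrays 19.8% passed, and the split was 1784 higher (10.8%) and 1504 lower (9.07%). A contrast between families that all cells express (385 genes, such as ribosomal and proteasome subunits) and families silent in liver (513 genes, such as olfactory receptors) also moved with the groups. It was 0.21, -0.09, 0.18, 0.02 and -0.01 on the log2 scale in treated arrays, against -0.25, -0.14, -0.25, -0.03 and -0.28 in vehicle arrays. The contrast of 4 of the 5 treated arrays lay above that of every vehicle array. In a fit with this contrast as covariate 726 genes passed, 4.38% of all, of which 592 were higher (3.57%) and 134 lower (0.808%). Its part in the results below was not tested beyond that fit, whose values are given beside each of the 9 called pump, cathepsin and LAMP genes. In that fit ABCA1 differed by 0.45 (adjusted p = 0.130) and SREBF2 by -0.10 (0.420), and neither passed.

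Of the 38 genes, 8 rose, 1 fell and 29 did not pass the limma test over all genes. The called share of 23.7% was near the 20.5% of all genes. The share called higher was 21.1%, against 13.7% of all genes, and the share called lower was 2.63%, against 6.80%. The genes that rose were the V1 subunits ATP6V1A, ATP6V1B2, ATP6V1D and ATP6V1G1, the V0 proteolipid ATP6V0C, the proteases CTSE and CTSO, and LAMP2. CTSS, the cathepsin of antigen-presenting cells, fell. Differences between treated and vehicle livers ranged from -0.47 to 0.49 with a median of 0.10, against a median of 0.04 over all genes. An unadjusted p under 0.05 was reached by 15 of the 38 genes, against 35.6% of all genes. The difference was above 0 for 28 of the 38 genes (73.7%), against 59.2% of all genes. In the fit with the family contrast it was above 0 for 21 of them (55.3%), against 68.4% of all genes. Every treated value lay above every vehicle value for 5 of the 38 genes, against 8.79% of all genes, and below for 1 of the 38, against 4.52% of all genes.

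**Figure D1:**
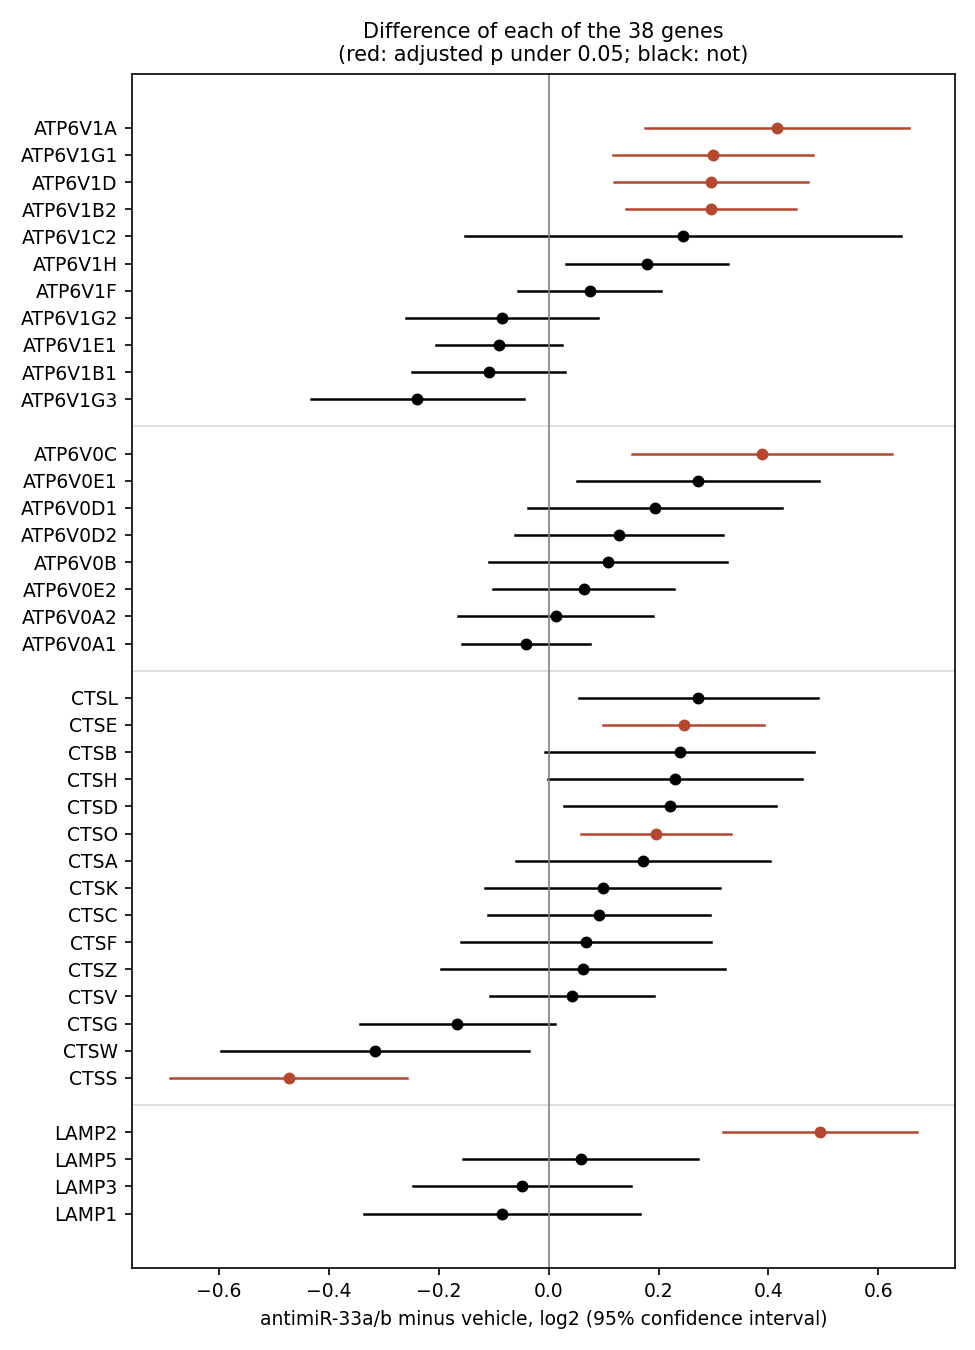
Difference between antimiR-33a/b and vehicle livers for each of the 38 genes (log2 scale, x axis), with its 95% confidence interval from limma, in blocks for the V1 sector, the V0 sector, the cathepsins and the LAMPs. Red marks the 9 genes past an adjusted p of 0.05; LAMP2 at 0.49 and CTSS at -0.47 lie at the ends of the range.

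The count depended on single animals. It was 2 genes higher without vehicle animal 1 and 2 without vehicle animal 2, 3 without treated animal 3, 5 without treated animal 1 and 13 without vehicle animal 4. Over all genes the number called higher also moved, to 1289, 1383, 1393, 1691 and 2514 in these fits, from 2271 with every animal. LAMP2, ATP6V1B2 and CTSS passed whichever of the 10 animals was left out. Allowing for the family contrast, 1 of the 38 genes was called higher (CTSE), against 3.57% of all genes, and 1 lower (LAMP1), against 0.808%, and the median difference was 0.07, against 0.09 over all genes.

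The V1 sector begins with its catalytic head. ATP6V1A, the subunit that binds and splits ATP, had centred values of 0.16, -0.08, 0.38, 0.19 and -0.30 in treated livers and -0.44, -0.43, -0.37, -0.13 and -0.35 in vehicle livers. All treated values but the lowest lay above the vehicle range. Its level was 1.33-fold that of vehicle (difference 0.42, SE 0.11, limma adjusted p = 0.0213). The call was lost without treated animal 3 (adjusted p = 0.0509), vehicle animal 1 (0.0540) or vehicle animal 2 (0.0507), and after quantile normalization (0.30, adjusted p = 0.0930). In the fit that holds the family contrast, the difference was 0.11 (SE 0.14, adjusted p = 0.633).

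ATP6V1B2, the B subunit found in most tissues, forms the head together with the A subunit. Its values were 0.04, -0.04, 0.17, 0.15 and -0.08 in treated livers, against -0.31, -0.35, -0.09, -0.32 and -0.17 in vehicle livers, and the groups did not overlap. The difference was 0.29, or 1.23-fold (SE 0.072, limma adjusted p = 0.0142). It was also 0.29 when the family contrast was allowed for, with a larger SE (0.11, adjusted p = 0.113). ATP6V1B1, the B subunit of kidney and other acid-secreting epithelia, differed by -0.11 (95% confidence interval -0.25 to 0.03). Within each animal the value of ATP6V1B2 minus that of ATP6V1B1 averaged 0.07 ± 0.11 in treated and -0.33 ± 0.12 in vehicle livers (SD, n = 5 each), with no overlap between the groups. This pair and those below were listed after the values had been seen and are a description without a test.

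The rotor and the stalks carried the other V1 calls. ATP6V1D, a subunit of the central rotor, had values of 0.06, 0.01, 0.26, 0.08 and -0.20 in treated livers and -0.29, -0.26, -0.17, -0.15 and -0.39 in vehicle livers. The groups overlapped through the lowest treated animal. The difference was 0.30 (1.23-fold, SE 0.082, limma adjusted p = 0.0238), and 0.12 once the family contrast was in the model (adjusted p = 0.485). The call was lost without treated animal 3 (adjusted p = 0.0593), vehicle animal 1 (0.0580) or vehicle animal 2 (0.0519), and after quantile normalization (0.0813). ATP6V1F, the other rotor subunit measured, differed by 0.08 and did not pass.

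ATP6V1G1, a subunit of the peripheral stalks that hold the head still, had values of 0.13, 0.01, 0.22, 0.17 and -0.09 in treated livers. In vehicle livers its values were -0.40, -0.33, -0.11, -0.01 and -0.20. The 4 highest treated values were above the vehicle range, and the lowest fell inside it. The difference was 0.30 (1.23-fold, SE 0.085, limma adjusted p = 0.0264), and 0.12 when the family contrast was allowed for (adjusted p = 0.508). Without treated animal 1, 3 or 4 or vehicle animal 1 or 2 the adjusted p lay between 0.0545 and 0.0707, and after quantile normalization it was 0.0599. Its paralogues did not pass: ATP6V1G2, known mainly from brain, differed by -0.09, and ATP6V1G3, known mainly from kidney, by -0.24 (adjusted p = 0.0757). ATP6V1G3 passed as lower after quantile normalization (adjusted p = 0.0313). ATP6V1G1 minus ATP6V1G2 averaged 0.11 ± 0.20 in treated and -0.27 ± 0.21 in vehicle livers (SD, n = 5 each). The difference between these means was 0.38, and -0.04 once the family contrast was in the model.

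Of the remaining V1 genes none passed. ATP6V1H, a regulator of the pump's activity, differed by 0.18 (adjusted p = 0.0788). Its 2 features gave 0.25, past the threshold when features were tested singly (adjusted p = 0.0380), and 0.11 (adjusted p = 0.299). ATP6V1E1, the partner of the G subunits in the stalks, differed by -0.09, and its features gave -0.15 and -0.03. ATP6V1C2, a C subunit of kidney, lung and placenta, was the V1 gene with the widest spread. Its values were 0.17, -0.31, 0.30, 0.28 and -0.36 in treated livers, against -0.10, -0.35, -0.28, 0.34 and -0.75 in vehicle livers. The groups overlapped over most of their range (difference 0.24, 95% confidence interval -0.15 to 0.64).

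**Figure D2:**
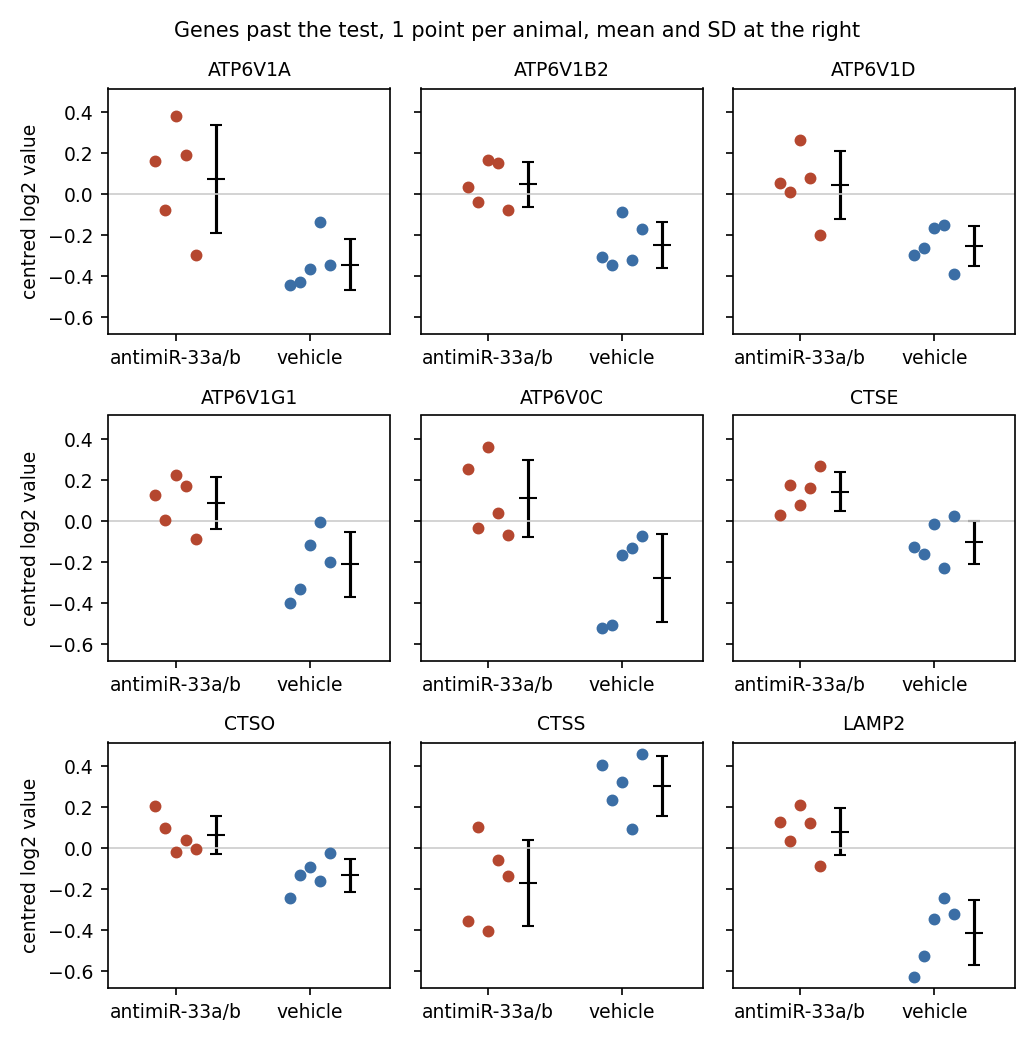
Centred log2 value (y axis) of the 9 genes past the test, with 1 point per animal, antimiR-33a/b at the left and vehicle at the right, and each group's mean and SD (n = 5) beside the points. CTSS is the 1 panel in which the treated mean is the lower; ATP6V1B2, ATP6V0C, CTSE, CTSO and LAMP2 show no overlap.

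In the V0 sector 1 of 8 genes rose (12.5%, against 13.7% of all genes) and 0 fell (against 6.80%). This was ATP6V0C, the proteolipid that makes up most of the proton-carrying ring. Its values were 0.25, -0.04, 0.36, 0.04 and -0.07 in treated livers and -0.52, -0.50, -0.16, -0.13 and -0.07 in vehicle livers. The groups just failed to overlap, with the lowest treated and the highest vehicle value both at -0.07 after rounding. The difference was 0.39 (1.31-fold, SE 0.11, limma adjusted p = 0.0262), and 0.18 when the family contrast was allowed for (adjusted p = 0.481). The call was lost without treated animal 1 or 3 or vehicle animal 1 or 2 (adjusted p between 0.0612 and 0.0692).

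ATP6V0E1, a small membrane subunit, came next in the V0 sector. Its values were 0.21, -0.05, 0.26, -0.01 and -0.12 in treated livers, against -0.42, -0.33, -0.21, 0.12 and -0.22 in vehicle livers. Vehicle animal 4 lay inside the treated range and the other 4 vehicle animals below it. The difference of 0.27 did not pass (adjusted p = 0.0760), and did so without vehicle animal 4 (0.35, adjusted p = 0.0133). ATP6V0D1 and ATP6V0D2, the ubiquitous and the tissue-restricted form of the subunit that couples rotor and ring, differed by 0.19 and 0.13. ATP6V0B, a second ring proteolipid, and ATP6V0E2 differed by 0.11 and 0.06. ATP6V0A1 and ATP6V0A2, forms of the large subunit that offers protons their path into the membrane, differed by -0.04 and 0.01. None of these 6 passed.

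Among 13 measured pump genes that the symbol rule leaves out, 3 rose (23.1%), 1 fell (7.69%) and 9 did not pass. Over all genes these shares were 13.7% higher and 6.80% lower. DMXL1, related to the factor that reassembles V1 with V0 in yeast, rose by 0.37 (SE 0.066, limma adjusted p = 0.00373). VMA21, a chaperone of V0 assembly in the endoplasmic reticulum, rose by 0.38 (SE 0.072, adjusted p = 0.00498). OXR1, a TLDc-domain protein of the oxidative stress response, rose by 0.58 (SE 0.13, adjusted p = 0.00895), and TLDC2, another TLDc-domain gene, fell by 0.28 (adjusted p = 0.0385). DMXL1 also passed once the family contrast was in the model (0.47, adjusted p = 0.0368), and VMA21 (0.23), OXR1 (0.41) and TLDC2 (-0.02) did not. TLDC2 missed the threshold in 7 of the 10 fits that left out 1 animal (adjusted p up to 0.0893). The V0 subunit TCIRG1, the form of osteoclasts and immune cells, differed by -0.09, and the accessory subunits ATP6AP2 and ATP6AP1 by 0.26 and 0.02, none past the test.

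LAMP2 had the smallest p of the 38 genes. It lines the lysosomal membrane and is needed for fusion with autophagosomes and, as its A form, for chaperone-mediated autophagy. Its values were 0.13, 0.03, 0.21, 0.12 and -0.09 in treated livers, against -0.63, -0.53, -0.35, -0.24 and -0.32 in vehicle livers, with a clear gap between the groups. The level was 1.41-fold that of vehicle (difference 0.49, SE 0.082, 95% confidence interval 0.32 to 0.67, limma adjusted p = 0.00294). The exact two-sided permutation p was 0.00794, the smallest that 5 against 5 animals allow. The 2 features that carry the symbol gave 0.46 and 0.53, and both passed on their own. In the feature at 0.46 the groups overlapped through treated animal 2 (-0.15) and vehicle animal 4 (-0.13). With allowance for the family contrast, the difference was 0.35 (SE 0.12, adjusted p = 0.0894).

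LAMP1, the close relative of LAMP2 in the same membrane, had values of -0.05, -0.34, 0.11, -0.04 and -0.31 in treated livers and -0.01, 0.05, -0.14, 0.27 and -0.38 in vehicle livers. The groups overlapped throughout, and the difference was -0.08 (95% confidence interval -0.34 to 0.17, limma adjusted p = 0.639). LAMP2 minus LAMP1 within an animal averaged 0.21 ± 0.10 in treated and -0.37 ± 0.29 in vehicle livers (SD, n = 5 each), again with no overlap. Once the family contrast was in the model LAMP1 differed by -0.48 and passed as lower (adjusted p = 0.0464). LAMP3, a marker of mature dendritic cells, and LAMP5, known from neurons and plasmacytoid dendritic cells, differed by -0.05 and 0.06 and did not pass.

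Of the 15 cathepsins 2 rose (13.3%), 1 fell (6.67%) and 12 did not pass, against 13.7% higher and 6.80% lower over all genes. CTSS, a cysteine protease that trims the invariant chain of MHC class II molecules in antigen-presenting cells, had the largest absolute difference of the family. Its values were -0.36, 0.10, -0.41, -0.06 and -0.14 in treated livers, against 0.40, 0.24, 0.32, 0.09 and 0.46 in vehicle livers. The 4 lower treated values lay below the vehicle range, and the groups overlapped through treated animal 2 and vehicle animal 4. The level was 0.720-fold that of vehicle (difference -0.47, SE 0.10, limma adjusted p = 0.00804). In the fit that holds the family contrast, the difference was -0.09 (SE 0.075, adjusted p = 0.423). Of 12 macrophage markers 7 had a positive and 5 a negative difference, 0 passed in limma, 1 had an unadjusted p under 0.05 (LYZ, 0.34), and CD68 and CD163 differed by -0.03 and 0.11. In the fit with the family contrast 9 of these 12 markers were negative, with a median difference of -0.33, 0 past the threshold and 4 at an unadjusted p under 0.05. The median of the 12 markers was between -0.22 and 0.19 in treated livers and between -0.42 and 0.40 in vehicle livers. Dendritic cell markers gave 0 of 7 past the test and 0 with an unadjusted p under 0.05. Their per-animal medians were between -0.11 and 0.11 in treated livers and between -0.10 and 0.14 in vehicle livers. Of 6 B and plasma cell markers TNFRSF17 and MZB1 rose, by 0.23 and 0.26, and the B cell genes MS4A1, CD79A and CD79B differed by -0.24, 0.17 and -0.03 without passing. TNFRSF17 and MZB1 missed the threshold in 8 and 7 of the 10 fits that left out 1 animal (adjusted p up to 0.105 and 0.103), and in the fit with the family contrast (0.22 and 0.37, adjusted p = 0.229 and 0.0853). The part of these cell types in the CTSS values was not tested.

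CTSE, an intracellular aspartic protease of stomach and immune cells, rose. Its values were 0.03, 0.18, 0.08, 0.16 and 0.27 in treated livers and -0.13, -0.16, -0.01, -0.23 and 0.02 in vehicle livers, without overlap. The difference was 0.25 (1.19-fold, SE 0.068, limma adjusted p = 0.0236), and its 2 features gave 0.22 and 0.27. In the feature at 0.22 vehicle animal 5 (0.11) lay inside the treated range. The difference of CTSE was 0.43 when the family contrast was allowed for (SE 0.076, adjusted p = 0.0353), the 1 gene of the 9 that stayed past the threshold there. The call was lost without treated animal 5 (adjusted p = 0.0552), vehicle animal 1 (0.0571) or vehicle animal 2 (0.0596).

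CTSO, a cysteine protease expressed in many tissues, rose by a smaller amount. Its values were 0.21, 0.10, -0.02, 0.04 and -0.002 in treated livers, against -0.24, -0.13, -0.09, -0.16 and -0.03 in vehicle livers. The groups did not overlap, by a margin of less than the SD of either group. The difference was 0.20 (1.15-fold, SE 0.063, limma adjusted p = 0.0437). It passed in 1 of the 10 fits that left out 1 animal, the one without vehicle animal 5, with an adjusted p between 0.053 and 0.113 in the other 9. The difference was 0.19 once the family contrast was in the model (adjusted p = 0.204), and after quantile normalization the adjusted p was 0.0502.

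The bulk lysosomal proteases had positive differences and none passed. CTSL, a broad cysteine protease, had values of 0.17, 0.004, 0.26, -0.12 and 0.11 in treated livers and -0.32, -0.20, -0.33, 0.18 and -0.27 in vehicle livers. Vehicle animal 4 stood apart from the other vehicle animals, which lay below all treated ones. The difference was 0.27 (limma adjusted p = 0.0709), and 0.36 without vehicle animal 4 (adjusted p = 0.00726). The endopeptidase and dipeptidase CTSB differed by 0.24, the aminopeptidase CTSH by 0.23, the aspartic protease CTSD by 0.22, and CTSA, which protects lysosomal neuraminidase and beta-galactosidase, by 0.17. All 3 of CTSB, CTSH and CTSD passed without vehicle animal 4 (adjusted p = 0.0417, 0.0232 and 0.0495). With allowance for the family contrast, the differences were -0.05 for CTSL, -0.12 for CTSB, 0.09 for CTSH, -0.01 for CTSD and -0.14 for CTSA, none past the threshold.

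Vehicle animal 4 held the highest vehicle value for 7 of the 15 cathepsins and for 18 of the 38 genes (47.4%), against 21.3% of all genes. The 7 were CTSA, CTSB, CTSC, CTSD, CTSH, CTSL and CTSZ. The same animal held the highest vehicle value for 11 of 12 macrophage markers, and its macrophage median was 0.40, against -0.42 to -0.10 in the other 4 vehicle animals. It also held the highest vehicle value for 7 of 10 hepatocyte markers and 15 of 22 sorting genes. The same was so for 20 of 35 genes listed as other hydrolases, and 15 of 24 listed as other membrane proteins and transporters. For CTSS it held the lowest vehicle value, 0.09. The family contrast of vehicle animal 4 was -0.03, against -0.28 to -0.14 in the other vehicle arrays. Over all 10 arrays the 7 cathepsins had a Pearson correlation with that contrast between 0.48 (CTSC) and 0.89 (CTSL), and CTSS had -0.98. The part of the macrophage markers in the cathepsin values was not tested, and that of the family contrast not beyond the fit that holds it.

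**Figure D3:**
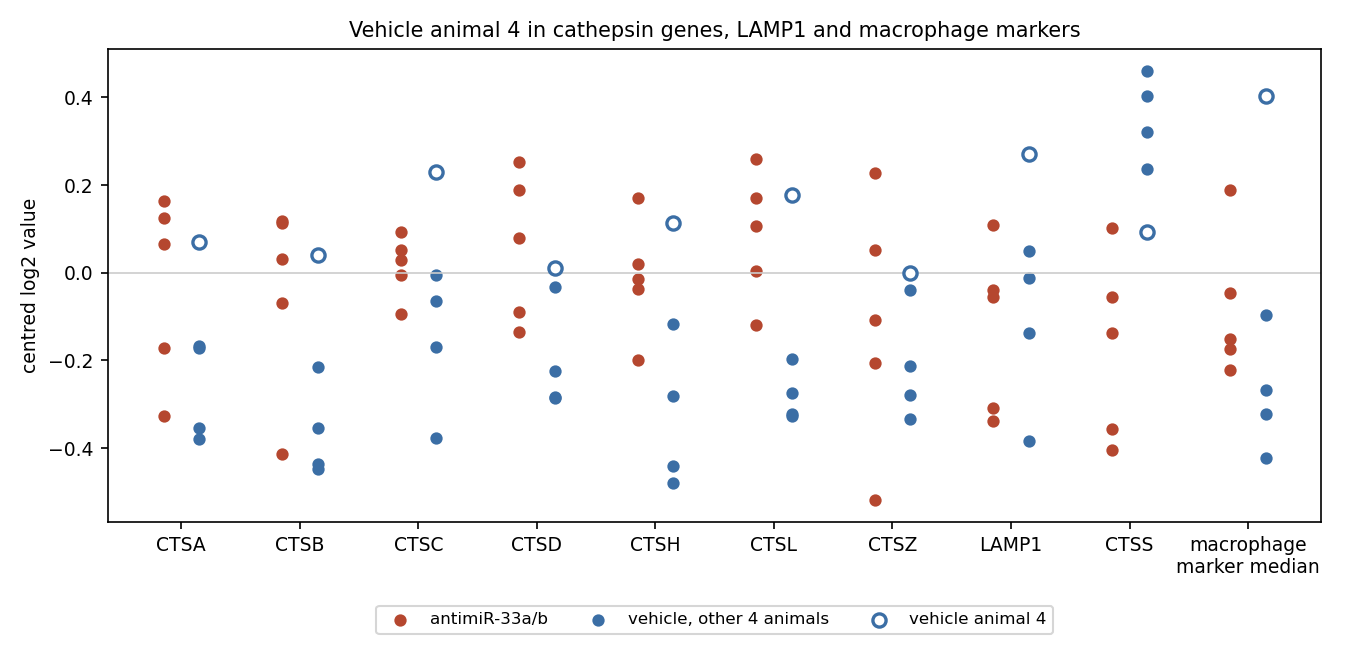
Centred log2 values (y axis) of the 7 cathepsins whose highest vehicle value came from vehicle animal 4, of LAMP1, CTSS and the median of 12 macrophage markers, 1 point per animal. The open circle is vehicle animal 4: it is the top vehicle point in each column but CTSS, where it is the lowest, at 0.09.

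The remaining cathepsins did not pass. CTSW, a protease of cytotoxic T and NK cells, had values of -0.18, -0.06, 0.02, -0.02 and -0.14 in treated livers, against 0.84, 0.08, 0.04, 0.03 and 0.21 in vehicle livers. All treated values lay below all vehicle values, and vehicle animal 1 lay far above the other 4. The difference was -0.32 (SE 0.13, limma adjusted p = 0.0994), and it was smaller without vehicle animal 1 (-0.17). Of 12 T and NK cell markers 3 fell (NKG7 by 0.31, CCL5 by 0.28 and GNLY by 0.20) and CD247 rose by 0.18. Over all genes 6.80% were called lower and 13.7% higher. CCL5, GNLY and CD247 missed the threshold in 3, 7 and 9 of the fits that left out 1 animal (adjusted p up to 0.0540, 0.0942 and 0.0965). None of the 4 passed in the fit with the family contrast, where NKG7 was at -0.04, CCL5 at -0.28, GNLY at -0.03 and CD247 at 0.25. The median of these markers was between -0.12 and 0.02 in treated livers and between -0.06 and 0.16 in vehicle livers. Their part in the CTSW values was not tested. CTSG, a serine protease of neutrophil granules, differed by -0.17, and CTSC, which activates granule proteases, by 0.09. Of 10 neutrophil and mast cell markers 4 had a positive and 6 a negative difference. The granule genes PRTN3 and AZU1 fell by 0.31 and 0.21, the 2 of these 10 past the test, beside the 6.80% of all genes called lower. Neither passed in the fit with the family contrast (-0.20 and -0.12), and AZU1 missed the threshold in 5 of the fits that left out 1 animal (adjusted p up to 0.0715). The granule genes MPO and ELANE both differed by 0.05, S100A8 by 0.22 and FCGR3B by 0.24, without passing. The per-animal medians of that list were between -0.08 and 0.04 in treated livers and between -0.004 and 0.14 in vehicle livers. CTSK, a collagen-degrading protease best known from osteoclasts, differed by 0.10, CTSF by 0.07, the carboxypeptidase CTSZ by 0.06 and CTSV, close in sequence to CTSL, by 0.04.

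**Figure D4:**
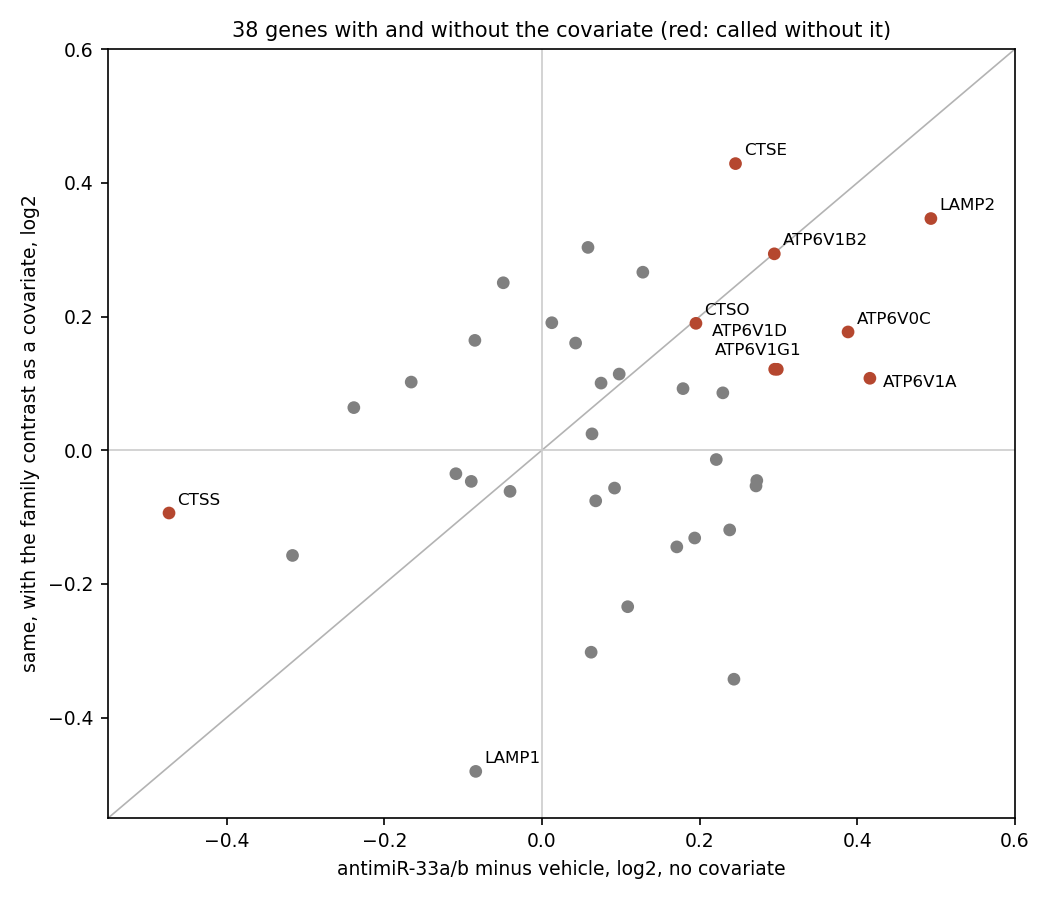
Difference between antimiR-33a/b and vehicle livers for the 38 genes without (x axis) and with (y axis) the family contrast in the model, both on the log2 scale, with the line of equal values. The 9 genes called without the covariate are red and keep their sign; ATP6V1B2 and CTSO lie on the line, CTSE and LAMP1 are the 2 genes past the threshold with it.

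All 9 called genes kept the sign of their difference with the covariate, while 15 of the 38 genes changed it. Of these 15, 11 had been positive and 4 negative without it, and 6 were pump genes, 8 were cathepsins and 1 was LAMP3. After quantile normalization 4 of the 38 genes were called higher (LAMP2, ATP6V1B2, CTSE and ATP6V0C), against 10.8% of all genes, and 2 lower (CTSS and ATP6V1G3), against 9.07%.

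Other lysosomal genes were read against the same background, 13.7% of all genes called higher and 6.80% lower. Of 35 genes listed as hydrolases other than cathepsins 4 rose (11.4%), 3 fell (8.57%) and 28 did not pass. PSAP and GM2A, which are not hydrolases, and the cytosolic peptidase TPP2 are among the 35. TPP1, a tripeptidyl peptidase, rose by 0.42 (SE 0.085, limma adjusted p = 0.00656). The alpha-fucosidase FUCA1 rose by 0.56, the acid phosphatase ACP2 by 0.38 and PSAP, the precursor of the saposins, by 0.37. ARSG, a sulfatase, fell by 0.38 (SE 0.060, adjusted p = 0.00222), and IDUA, the alpha-iduronidase, and the mannosidase MAN2B2 fell by 0.36 and 0.23. All treated values were below all vehicle values for these 3 of the 35 genes, against 4.52% of all genes. None of the 7 stayed past the threshold when the family contrast was allowed for, where TPP1 was at 0.35, FUCA1 at 0.13, ACP2 at 0.12, PSAP at 0.07, ARSG at -0.27, IDUA at -0.22 and MAN2B2 at -0.17. ACP2 and MAN2B2 each missed it in 1, and PSAP in 5, of the fits that left out 1 animal (adjusted p up to 0.0531, 0.0554 and 0.0712).

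Among 24 genes listed as other membrane proteins and transporters 3 rose (12.5%), 2 fell (8.33%) and 19 did not pass (median difference -0.001). Over all genes these shares were 13.7% higher and 6.80% lower. SLC38A9, the arginine sensor of the lysosomal membrane, rose by 0.42 (SE 0.084, limma adjusted p = 0.00657). LMBRD1, which is needed for cobalamin to leave the lysosome, rose by 0.43, and NPC2, the soluble carrier that hands cholesterol to NPC1, rose by 0.38. CLN3, mutated in a childhood neurodegenerative disease, fell by 0.33 (SE 0.059, adjusted p = 0.00426), and CLCN7, the chloride-proton exchanger, fell by 0.26. CLN3 also passed once the family contrast was in the model (-0.37, adjusted p = 0.0439), and the other 4 did not. LMBRD1 and NPC2 missed the threshold in 4 and 6 of the fits that left out 1 animal (adjusted p up to 0.0597 and 0.0700).

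Of 22 genes that sort enzymes to lysosomes 8 rose (36.4%), 1 fell (4.55%) and 13 did not pass. Over all genes these shares were 13.7% higher and 6.80% lower. IGF2R, the large mannose 6-phosphate receptor, rose by 0.40 (SE 0.074, limma adjusted p = 0.00432). The clathrin heavy chain CLTC rose by 0.50 (SE 0.11, adjusted p = 0.00865) and the adaptor subunit AP1G1 by 0.31, while the adaptor GGA1 fell by 0.33. The light chain CLTA, the AP-3 subunits AP3B1, AP3M1 and AP3S1 and the retromer subunit VPS35 also rose, by 0.22 to 0.32. Each of these 5 missed the threshold in at least 4 of the fits that left out 1 animal (adjusted p up to 0.115). None of the 9 passed when the family contrast was allowed for, where CLTC was at 0.14 and GGA1 at -0.45. AP1M1 of this list passed there as lower (-0.97, limma adjusted p = 0.0353). Without the covariate it had not passed (-0.37, adjusted p = 0.116).

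Transcription of many lysosomal genes is under control of TFEB, which the kinase complex mTORC1 holds inactive at the lysosomal surface. TFEB itself fell. Its values were -0.10, -0.01, -0.19, -0.21 and -0.06 in treated livers, against 0.26, 0.35, 0.31, 0.31 and 0.19 in vehicle livers, and the groups were far apart. The level was 0.759-fold that of vehicle (difference -0.40, SE 0.060, 95% confidence interval -0.53 to -0.27, limma adjusted p = 0.0019). The difference was -0.39 once the family contrast was in the model (SE 0.087, adjusted p = 0.0412), and TFEB passed whichever animal was left out. The related factors TFE3, TFEC and MITF differed by 0.15, 0.15 and 0.03 and did not pass.

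Of the 25 genes of the list that holds TFEB, mTORC1 and its lysosomal regulators, 4 rose (16%), 2 fell (8%) and 19 did not pass. Over all genes these shares were 13.7% higher and 6.80% lower. RPTOR, the scaffold of mTORC1, fell by 0.30 (SE 0.061, limma adjusted p = 0.0072). RRAGB, a GTPase that brings mTORC1 to the lysosome, rose by 0.29 (SE 0.058, adjusted p = 0.00628) and passed when the family contrast was allowed for too (0.33, adjusted p = 0.0472). FNIP1, a partner of folliculin in the control of these GTPases, rose by 0.54 (SE 0.11, adjusted p = 0.00672). NPRL2, part of a complex that switches them off, and the Ragulator subunit LAMTOR4 rose by 0.18 and 0.19. In the fit with the family contrast RPTOR was at -0.26 (adjusted p = 0.0898), FNIP1 at 0.45 (0.122), NPRL2 at 0.11 (0.268) and LAMTOR4 at 0.11 (0.440), none past the threshold. AKT1S1 of this list passed there as lower (-0.46, limma adjusted p = 0.0498). Without the covariate it had not passed (-0.22, adjusted p = 0.111). For RRAGB, FNIP1 and NPRL2 all treated values lay above all vehicle values, and for TFEB and RPTOR below. This held for 3 and 2 of the 25 genes, against 8.79% and 4.52% of all genes. NPRL2 and LAMTOR4 missed the threshold in 4 and 8 of the fits that left out 1 animal (adjusted p up to 0.0661 and 0.114).

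**Figure D5:**
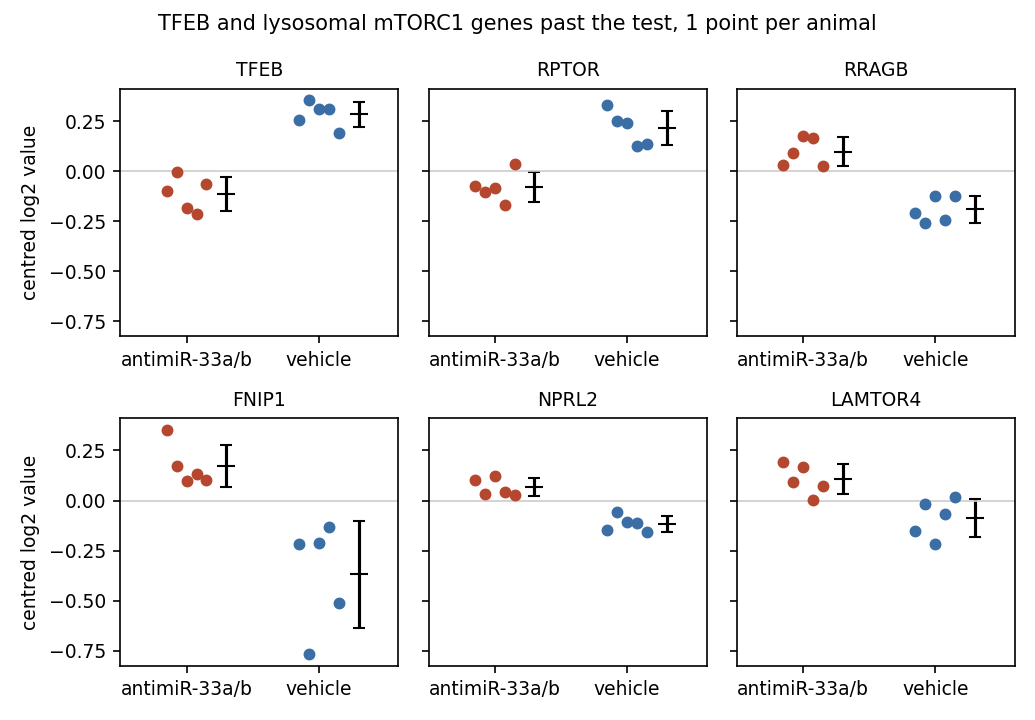
Centred log2 values (y axis) of TFEB and of the 5 lysosomal mTORC1 genes past the test, with 1 point per animal, antimiR-33a/b at the left and vehicle at the right, and each group's mean and SD (n = 5) beside the points. TFEB and RPTOR are lower, and RRAGB, FNIP1, NPRL2 and LAMTOR4 higher, in treated livers; LAMTOR4 is the 1 panel with overlap.

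Of 16 inhibitors of cathepsins and related proteases 1 rose (6.25%), 2 fell (12.5%) and 13 did not pass. Over all genes these shares were 13.7% higher and 6.80% lower. KNG1, the liver-made kininogen whose heavy chain inhibits cysteine proteases, rose by 0.31 (SE 0.058, limma adjusted p = 0.00458). CST6, a secreted cystatin, fell by 0.27 (adjusted p = 0.0105), and CST7, the cystatin of cytotoxic lymphocytes, fell by 0.27 (adjusted p = 0.0207). CST7 missed the threshold in 1 of the fits that left out 1 animal (adjusted p = 0.0526), and none of the 3 passed once the family contrast was in the model. The broadly expressed inhibitors CST3 and CSTB differed by 0.08 and -0.04.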

How the data were processed

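Liver RNA of 10 animals was hybridised to one-colour arrays, 1 array per animal, as Cy3-labelled double-stranded cDNA, per the labels' protocols. The deposited values are signed and centred per feature, as the values themselves show, and were treated as log2; for the scanner, the normalization and the log base, the step is not given in the sources used here. Signal over background is unknown, and the number of arrays limits the precision. A platform annotation gave 1 symbol to 18188 of 45033 features. Features of a gene were averaged, and 16583 genes were fitted with limma 3.58.1 (R 4.3.3; lmFit and eBayes, treated minus vehicle, no covariate). All p-values were adjusted together by the Benjamini-Hochberg method, and 0.05 was the threshold. The largest correlation between 2 arrays was 0.712, so no array was a copy. The labels give 1 animal per array, and replicates were numbered in accession order. The fit was tested on simulated data. Alternatives were quantile normalization, a shift to equal medians, features singly, trend and robust moderation, array weights, an exact permutation test, the family contrast as covariate, leaving out each animal and, chosen after seeing the data, equal medians and spreads. The family contrast is the array's median over 385 genes of housekeeping symbol families minus that over 513 genes of silent families. The members and gene lists were chosen with earlier results of these data known. The rule for named genes gives every animal's value for each called member and for the 4 uncalled ones with the largest absolute difference, and from other lists any called gene or up to 3 with the smallest p; further genes were named after their values were seen. No numbers in the labels pair animals across groups, and no batch is given. Sequences, promoters and coordinates were not used here.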

Additional observations from a re-analysis of the deposited data

Results flagged for a closer look

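In 4 of 76 groups of 5 values (38 genes, 2 groups each), 1 animal stood further from the rest than Dixon's limit of 0.71 of the group's range; chance gives about 1 in 20. In treated animal 3 ATP6V1H was at 0.25 and CTSK at 0.36, against -0.02 to 0.03 and -0.07 to -0.03 in the other treated animals. In vehicle animal 4 CTSL was at 0.18, against -0.33 to -0.20 in the other vehicle animals. In vehicle animal 1 CTSW was at 0.84, against 0.03 to 0.21 in the other vehicle animals.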

How the results depend on the processing

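The 9 called genes kept their direction in every fit run. The exact permutation test with Benjamini-Hochberg adjustment over all genes called 0 genes in any list. It could call none, because the smallest p that 5 against 5 animals allow, 0.0079, became 0.0596 after adjustment. An unadjusted p under 0.05 was reached by 13 of the 38 members and 5454 of all genes in the permutation test. In limma it was reached by 15 and 5904. Of the 38 members 8 were called higher and 1 lower. This was 4 and 2 after quantile normalization, 1 and 1 when the family contrast was allowed for, 12 and 2 with array weights, 8 and 2 with arrays shifted to equal medians, and 5 and 2 with equal medians and spreads, a setting chosen after seeing the data; without single animals it ran from 2 to 13 higher and from 1 to 2 lower. Over all genes the calls without single animals ran from 1289 to 2514 higher and from 636 to 1603 lower, and with the family contrast they were 592 higher and 134 lower. Called genes without single animals ran from 3 to 5 for other pump genes, 5 to 8 for hydrolases, 3 to 6 for membrane proteins, 4 to 10 for sorting, 4 to 6 for TFEB and mTORC1 genes and 2 to 3 for inhibitors. With the family contrast these lists had 1, 0, 1, 1, 3 and 0 called genes. After quantile normalization the membrane and sorting lists had 3 and 4, and with equal medians and spreads also 3 and 4. The median difference over the members, 0.10, ran from 0.07 to 0.15. Of the uncalled members 8 passed in at least 1 fit. The causes of these changes were not tested. No paired analysis was possible because the labels give no numbers that animals of both groups share.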

Other observations

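Markers of other cell types gave these values beside the lysosomal genes. Over all genes 13.7% were called higher and 6.80% lower. Of 10 hepatocyte markers 5 rose and 0 fell; ALB rose by 0.44 (limma adjusted p = 0.00721) and TF by 0.31. Of 11 stellate cell and matrix markers 3 rose. TIMP1, an inhibitor of matrix proteases, rose by 0.36 (adjusted p = 0.00666), RGS5 by 0.34 and LRAT by 0.33. RGS5 and LRAT each missed the threshold in 1 of the fits that left out 1 animal (adjusted p up to 0.0537 and 0.0504). Of the 11 differences 8 were positive and 3 negative (COL1A1 -0.13, PDGFRB -0.06 and DES -0.03, none past the test). Of 10 sinusoidal endothelial markers 3 rose, among them the scavenger receptors STAB1 by 0.41 and STAB2 by 0.33. In this list 7 differences were positive and 3 negative (CLEC4M -0.24, CLEC4G -0.14 and FCN3 -0.10, none past the test). STAB1 and STAB2 missed the threshold after quantile normalization (adjusted p = 0.0564 and 0.0512), in 2 and 4 of the fits that left out 1 animal, and in the fit with the family contrast (0.11 and 0.20, adjusted p = 0.659 and 0.400). In that fit ALB was at 0.53 (adjusted p = 0.0551), TF at 0.38 (0.0666) and TIMP1 at 0.45 (0.0460), of which TIMP1 passed. None of 6 cholangiocyte and none of 4 red cell markers passed in limma, with 1 and 1 at an unadjusted p under 0.05, while the median of the red cell markers was between -0.03 and 1.89 in treated livers and between -1.15 and 0.47 in vehicle livers.

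Features of 1 gene did not always move together. The 2 CTSC features differed by 0.24 and -0.06, and the 2 ATP6V1G2 features by 0.005 and -0.18, none of them past the threshold.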
